A study of Mus musculus with 4 samples.

Results

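Many protein-coding genes of the mouse have a neighbour that is read from the other DNA strand, and where the nomenclature names such a neighbour after the coding gene it adds the suffix os, for opposite strand. Here that neighbour is called the opposite-strand transcript and the coding gene its host. The counts of 290 such transcripts (suffix os or os1 to os5) and of their 248 hosts were set side by side, out of 50600 genes in each table. A transcript was taken where its symbol is a host's symbol plus the suffix and the host lies on the same chromosome and the opposite strand. This rule uses names and positions and no measured value. It leaves out 4 further transcripts, those on chromosome X among them, which were not analysed here. Where several transcripts are named for 1 host, as for 31 hosts, their pairs share the host's counts and are not independent.

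The samples were 4 RNA-seq libraries of T-helper 2 (Th2) primary cells from the mouse strain C57BL/6NJ, labelled as biological replicates 1 to 4 of 1 group. Th2 cells are the CD4+ T cells known for the cytokines IL-4, IL-5 and IL-13. No control group, allele or agent is given, and age and sex are not recorded, so the comparison made was between the 2 strands within each library. The labels link a CD4+ T cell differentiation protocol and give all 4 libraries the same donor record, and it is not stated whether several mice were used. A p-value here thus reflects the spread among these libraries, and part of that spread may be technical.

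Each table gave fragment counts per gene. Totals were 1804217, 1846441, 2711948 and 2169955 fragments in replicates 1 to 4, and 1785767 to 1935713 without the ribosomal RNA gene CT010467.1, which took a different share of each library. A count of 0 allows up to 3 fragments, which is 1.11 to 1.66 CPM, the count scaled to a library total, in these libraries. The libraries differed by more than counting noise, with a chi-square per degree of freedom of 2.21 to 3.54 among replicates 1 to 3 and 13.1 to 13.9 between replicate 4 and each of these. Of the T cell markers, Cd4 had 56, 67, 71 and 20 fragments, Cd3g had 16, 16, 14 and 5, and Gata3, the Th2 transcription factor, had 20, 47, 44 and 22. Il4 had 24, 21, 25 and 26 fragments and Il13 had 1 in all. Among markers of other cells, Cd8a, Itgax, Lyz2, Ncr1, Hbb-bs and Epcam were at 0, Cd79a had 9 to 15 fragments, and Csf1r had 983 to 1026, with 871 of its exon bases shared with the other strand. In bulk RNA, fewer cells that hold a transcript and less of it per cell cannot be told apart.

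Transcription from both strands of a locus yields RNAs that are complementary where their exons overlap. Such antisense RNAs are known to act on their host in several ways, among them interference between polymerases, RNA duplexes that mask splice sites, and recruitment of chromatin modifiers, and for most of them no function is known. For counting, an overlap matters because a fragment inside shared bases can be given to 1 of the genes only by its strand. The authors counted with featureCounts and strand setting 1, which takes the first read of a pair as lying on the gene's own strand. Which strand the library kit marks is not given in the sources used here. RNA of the named gene and RNA of its partner on the other strand were thus not told apart here.

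By the GENCODE M21 annotation, 249 of the 290 transcripts were antisense RNAs, 14 processed transcripts, 10 lincRNAs and 10 protein-coding genes, and the remaining 7 fell into 4 other types. All 248 hosts were protein-coding. The transcripts had a median of 1299 exon bases in a median of 3 exons, and 13 had a single exon, against a median of 4775 exon bases in the hosts. In 156 pairs at least 1 exon base lay in exons of both genes, with a median of 244 shared bases and a maximum of 2365 between Zfhx2os and Zfhx2, and in 134 pairs none did. The shared bases formed 261 blocks, and 85 of these, in 58 pairs, were a whole exon of the host lying inside an exon of the transcript. Another opposite gene besides the named host shared bases with 27 of the transcripts, and 128 transcripts shared none with any opposite gene.

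Of these shared blocks 5 show what such an overlap looks like, from the 5 pairs with the highest transcript counts among 7 in which a block of 100 to 300 bases lay in the host's coding sequence. Each line gives the host's coding strand 5′ to 3′, from GENCODE M21 transcripts (GRCm38, coordinates of the capitals). Capitals mark the bases that are also in an exon of the opposite-strand transcript, which carries their reverse complement, and the lower-case ends are the 20 coding bases of the host on either side.
Galnt6 (chr15:100704111-100704260, minus strand, opposite Galnt6os): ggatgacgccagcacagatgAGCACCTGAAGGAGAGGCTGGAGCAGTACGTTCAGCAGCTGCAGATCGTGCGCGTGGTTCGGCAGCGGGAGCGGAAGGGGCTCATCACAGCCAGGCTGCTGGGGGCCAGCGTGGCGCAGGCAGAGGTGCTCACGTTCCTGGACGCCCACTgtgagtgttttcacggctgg
Ube4b (chr4:149357625-149357823, minus strand, opposite Ube4bos1): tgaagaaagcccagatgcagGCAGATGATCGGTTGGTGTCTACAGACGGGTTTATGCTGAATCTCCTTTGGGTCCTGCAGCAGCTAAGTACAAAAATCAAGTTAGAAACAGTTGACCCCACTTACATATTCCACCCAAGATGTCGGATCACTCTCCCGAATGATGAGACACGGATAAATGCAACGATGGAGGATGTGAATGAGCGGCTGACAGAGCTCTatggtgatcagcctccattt
Rsf1 (chr7:97678935-97679098, plus strand, opposite Rsf1os2): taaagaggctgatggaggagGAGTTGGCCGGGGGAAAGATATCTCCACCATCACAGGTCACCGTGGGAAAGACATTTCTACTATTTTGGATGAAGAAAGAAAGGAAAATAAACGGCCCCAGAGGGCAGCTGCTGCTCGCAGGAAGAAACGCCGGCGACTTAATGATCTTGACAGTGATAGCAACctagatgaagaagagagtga
Kdm6b (chr11:69401515-69401663, minus strand, opposite Kdm6bos): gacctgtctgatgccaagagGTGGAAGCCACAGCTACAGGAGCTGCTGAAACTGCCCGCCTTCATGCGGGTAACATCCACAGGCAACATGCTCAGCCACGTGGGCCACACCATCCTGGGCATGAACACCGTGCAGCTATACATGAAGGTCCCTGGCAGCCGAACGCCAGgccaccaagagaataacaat
Man2c1 (chr9:57131159-57131285, plus strand, opposite Man2c1os): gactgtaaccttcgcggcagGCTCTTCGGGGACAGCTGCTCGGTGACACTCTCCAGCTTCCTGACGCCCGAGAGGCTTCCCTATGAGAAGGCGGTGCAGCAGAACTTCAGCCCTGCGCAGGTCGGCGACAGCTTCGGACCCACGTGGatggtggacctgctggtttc

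In 4 of the 5, Rsf1 being the exception, the capitals are a whole exon of the host, so that the junctions on both sides belong to the host alone. The reverse complement of all 5 blocks was found in an annotated transcript of the opposite gene. These blocks held 127 to 199 bases with a GC content of 47.2% in Ube4b to 66.7% in Galnt6.

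**Figure D1:**
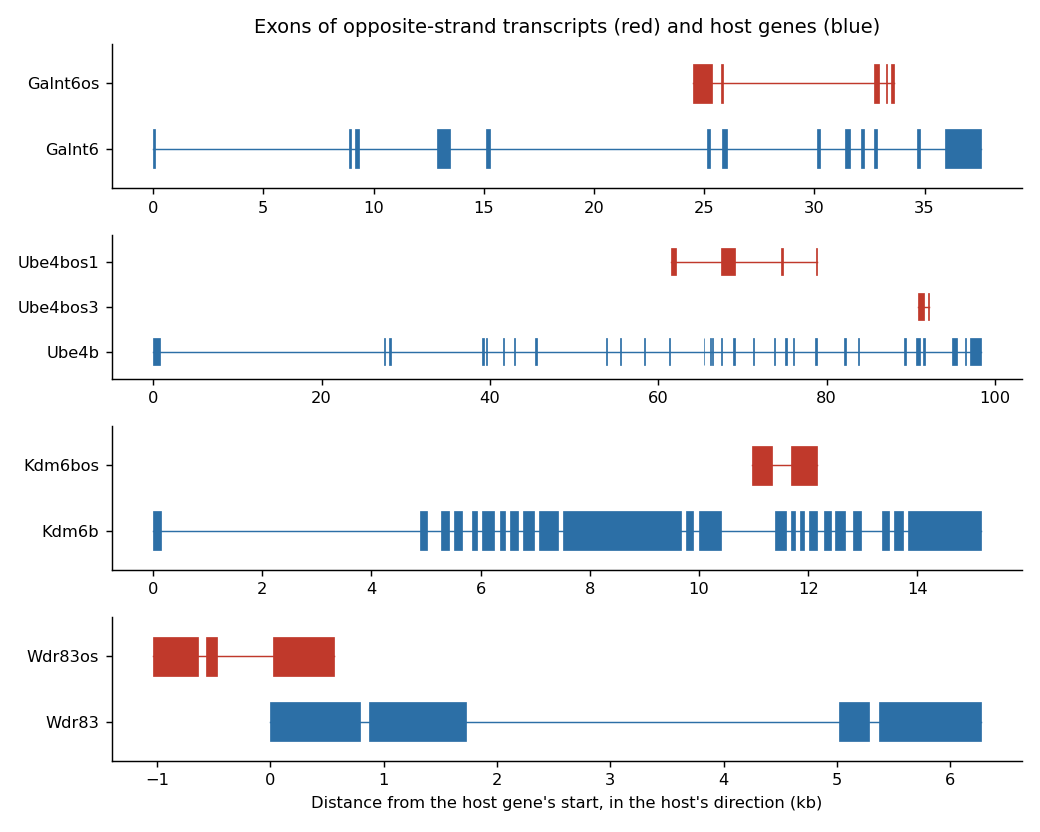
Exons (boxes) of 5 opposite-strand transcripts in red and of their 4 hosts in blue, by distance from the host's start in kilobases in the host's direction. Galnt6os, Ube4bos1, Ube4bos3 and Kdm6bos lie inside their hosts, while Wdr83os overlaps the start of Wdr83, with 539 shared bases.

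With fragments assigned by strand setting 1, more were counted for the transcripts as a group than for their hosts. Whether the RNA came from the strand so named was not tested, and this holds for every transcript and host level given here. A fragment counted for a gene may have come from RNA of a partner on the other strand. Summed over all members the transcripts had 25557, 25395, 26853 and 27654 fragments in replicates 1 to 4, against 15928, 15835, 16314 and 15088 in the hosts. The transcripts' share of the pair total was 61.6, 61.6, 62.2 and 64.7%, or 62.5% ± 1.48 (SD, n = 4), and every library gave the transcripts the larger part. With each count divided by exon bases the share was 81.9% ± 1.22. The 2 strands were uneven inside, since the 10 highest transcripts held 58.7% of all transcript fragments and a single host held more fragments than any transcript. Without the pair of highest summed count the share was 70.9% ± 1.4.

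Most of the fragments came from a minority of the members. A fragment in any library was counted for 150 transcripts, and 140 had none. The mean count reached 10 in 77 transcripts, 100 in 42 and 1000 in 9, against 55 hosts at 10, 16 hosts at 100 and 91 hosts at 0 in all libraries. In 70 pairs the transcript's count exceeded the host's in all 4 libraries, in 59 the host's exceeded the transcript's, and in 82 both were at 0.

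Pairs were compared per exon base with edgeR's quasi-likelihood test (Benjamini-Hochberg adjusted over 3331 opposite-strand pairs, threshold 0.05), for the 150 member pairs with at least 10 fragments in total. The transcript was higher in 83 of the 150 (55.3%), the host in 28 (18.7%), and 39 did not pass. Over all opposite-strand pairs fitted, the member pairs included, 87.2% were called in either direction. In member pairs the transcript was set over the host whatever its length, and in other pairs the shorter gene over the longer. The transcript or shorter gene was higher in 62.1% and the host or longer gene in 25.1%. The 2 sets are unlike, since all other pairs in the fit share exon bases and 54 of the member pairs share none. The median log2 ratio was 2.33 over the member pairs and 3.37 over all pairs. Without the division by exon bases the host was higher in 58 pairs and the transcript in 68.

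The calls lay unevenly over the pairs. Of the 96 fitted pairs that share exon bases the transcript was higher in 76 (79.2%) and the host in 11 (11.5%), while of the other 3181 pairs, which all share bases, the shorter gene was higher in 62.4% and the longer in 25.4%. The difference between these shares was not tested. Of the 54 fitted pairs that share none the transcript was higher in 7 (13%) and the host in 17.

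**Figure D2:**
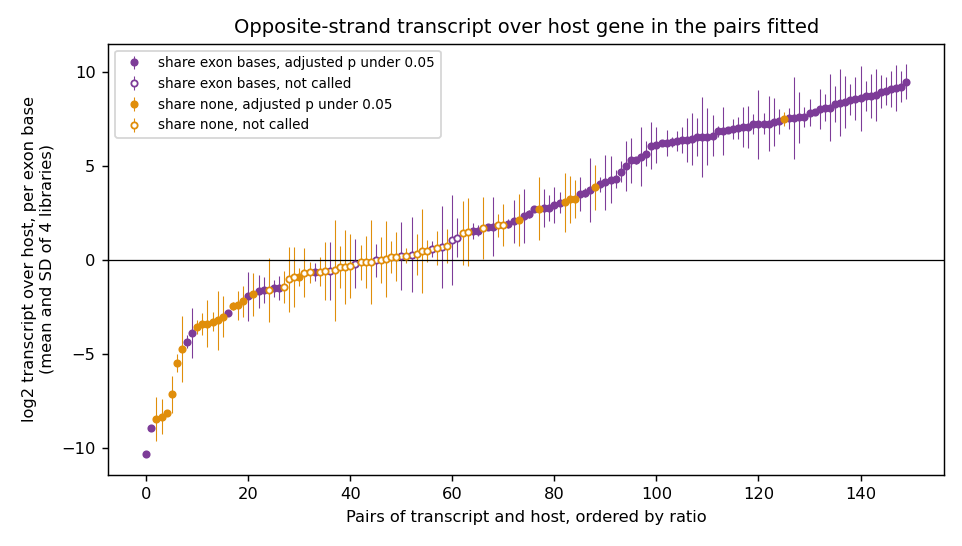
The log2 ratio of transcript over host per exon base, with 0.5 added to each count, for the 150 pairs fitted, ordered by ratio; points are means and bars SDs of 4 libraries, and filled points passed the edgeR test. Pairs that share exon bases fill most of the right side, where the transcript is higher, and the 17 pairs called for the host without shared bases lie on the left.

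The 20 transcripts with the highest mean counts had mean levels of 107 to 816 TPM, a measure per exon base with an equal total for every library, and all 20 were higher than their host by edgeR's test. These 20 were chosen by the transcript's own count, a side of the ratio. Their calls and p-values were thus largely set by the choice and are a description. In 19 of the 20 the pair shared exon bases, and 15 of the hosts had a mean count under 25. Leaving Gimap1os and Cebpzos aside, the other 18 were 11.9 to 1232 times as high as their host per exon base.

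Among hosts of membrane traffic and mitochondrial import, the highest transcript was Tomm6os (chr17:47687610-47691083, plus strand), named for Tomm6, a small subunit of the mitochondrial outer membrane translocase. It had 3123, 3131, 3266 and 3187 fragments in replicates 1 to 4, against 16, 19, 15 and 12 for Tomm6, with no overlap between them. Tomm6os was 78.7 times as high per exon base (log2 6.27 ± 0.28, SD, n = 4, edgeR adjusted p = 1.03e-07). It shares 219 exon bases with Tomm6 and 1221 with Prickle4, another opposite gene with 44 fragments in all, and it also shares bases with 1 gene of its own strand, which makes its count less certain. Rab10os, which overlaps the end of the vesicle transport GTPase Rab10 by 143 bases, had 2179, 2037, 2238 and 1863 fragments. Rab10 itself had 121, 110, 86 and 84, more than most hosts in this group. The ratio per exon base was 11.9 (log2 3.58 ± 0.25, SD, n = 4, edgeR adjusted p = 4.38e-07).

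Of the hosts with roles in lymphocytes, Gimap1, a GTPase of the immunity-associated family needed for lymphocyte survival, was among the few with sizeable counts on both strands. Gimap1os, a single exon on chr6:48738346-48741444 (minus strand) over the start of Gimap1, had 1704, 1815, 1884 and 1912 fragments. Gimap1 had 314, 368, 369 and 282. The transcript was the higher in each library, by 5.44 times per exon base (log2 2.45 ± 0.21, SD, n = 4, edgeR adjusted p = 2.59e-06), and the pair shares 1107 bases. Faddos, opposite the death receptor adaptor Fadd, had 293, 341, 302 and 473 fragments, against 4, 5, 9 and 4 for Fadd. Replicate 4 gave the highest Faddos value while Fadd stayed under 10 throughout.

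Among the 20 pairs, Kdm6b, Rsf1 and Ino80d are hosts that act on chromatin. Kdm6bos, of 840 exon bases inside the gene of the H3K27 demethylase JMJD3, had 873, 835, 737 and 858 fragments. Kdm6b had 19, 15, 16 and 6 over 6954 exon bases. Per exon base Kdm6bos was 488 times as high (log2 8.99 ± 0.75, SD, n = 4, edgeR adjusted p = 1.11e-07). Kdm6bos shares 286 of its bases with Kdm6b, the block printed above among them. Rsf1os2, opposite the chromatin remodelling factor Rsf1, had 1028, 1098, 1152 and 1495 fragments, against 43, 50, 35 and 28 for Rsf1. Ino80dos, which starts inside Ino80d, a subunit of the INO80 remodelling complex, had 1238, 1228, 1298 and 1064, against 19, 24, 6 and 16 for Ino80d. In both pairs the lowest value of the transcript lay far above the highest of the host, at 151 and 457 times per exon base.

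The host Ube4b, an enzyme that lengthens ubiquitin chains, has 3 named transcripts. Ube4bos1 had 1291, 1265, 1316 and 1223 fragments and Ube4bos3 had 422, 419, 466 and 480. Ube4b had 13, 18, 12 and 5. Ube4bos1 and Ube4bos3 share 452 and 296 exon bases with the host, and Ube4bos2, which shares none, had 2, 1, 5 and 6 fragments over 317 exon bases. With Ube4b, 14 hosts had both a transcript that shares bases with an opposite gene and one that shares none. In Ube4b and the 5 others of these with at least 10 fragments in a transcript, the highest sharing transcript had the higher mean TPM, for example 221 for Rsf1os2 against 0.93 for Rsf1os1. This is a description of a few loci, chosen after their values were seen.

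Galnt6os lies inside Galnt6, a transferase that starts mucin-type O-glycans, at chr15:100695780-100704896 (plus strand). It had the highest mean level of the 20, 816 ± 56.4 TPM (SD, n = 4), from 1442, 1383, 1733 and 1816 fragments. Galnt6 had 19, 26, 25 and 2, so that replicate 4 was low for the host and highest for the transcript. The ratio was 247 per exon base (log2 8.36 ± 1.77, SD, n = 4, edgeR adjusted p = 1.44e-06), where replicate 4 alone gave a log2 of 10.98.

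Brip1os was the 1 transcript of the 20 that shares no base with its named host, Brip1, a DNA helicase that binds BRCA1. It had 1201, 1016, 1177 and 1058 fragments, against 6, 9, 7 and 5 for Brip1. Brip1os starts near the start of Brip1 and runs away from it, and its exons share 800 bases with Med13, a Mediator kinase module subunit that had 55 fragments in all, and further bases with 1 more opposite gene.

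The remaining transcripts of the 20 followed the same pattern. Man2c1os had 758 to 855 fragments, against 17 to 32 for Man2c1, a cytosolic mannosidase. Ppp1r18os had 564 to 633, against 41 to 50 for Ppp1r18, a regulatory subunit of protein phosphatase 1. Far1os had 412 to 557, against 2 to 12 for Far1, a fatty acyl-CoA reductase of ether lipid synthesis. Anxa11os had the largest ratio of the 20, with 335, 390, 381 and 371 fragments, against 1, 1, 0 and 0 for the annexin gene Anxa11. With 2 host fragments in all, its ratio of 1232 rests on very few counts and was 1905 without replicate 1. Uckl1os had 387 to 499 fragments, against 0 to 3 for Uckl1, and Dhrs13os 495 to 655, against 1 to 6 for Dhrs13. Phtf1os had 1083 to 1314 fragments, against 15 to 19 for Phtf1.

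**Figure D3:**
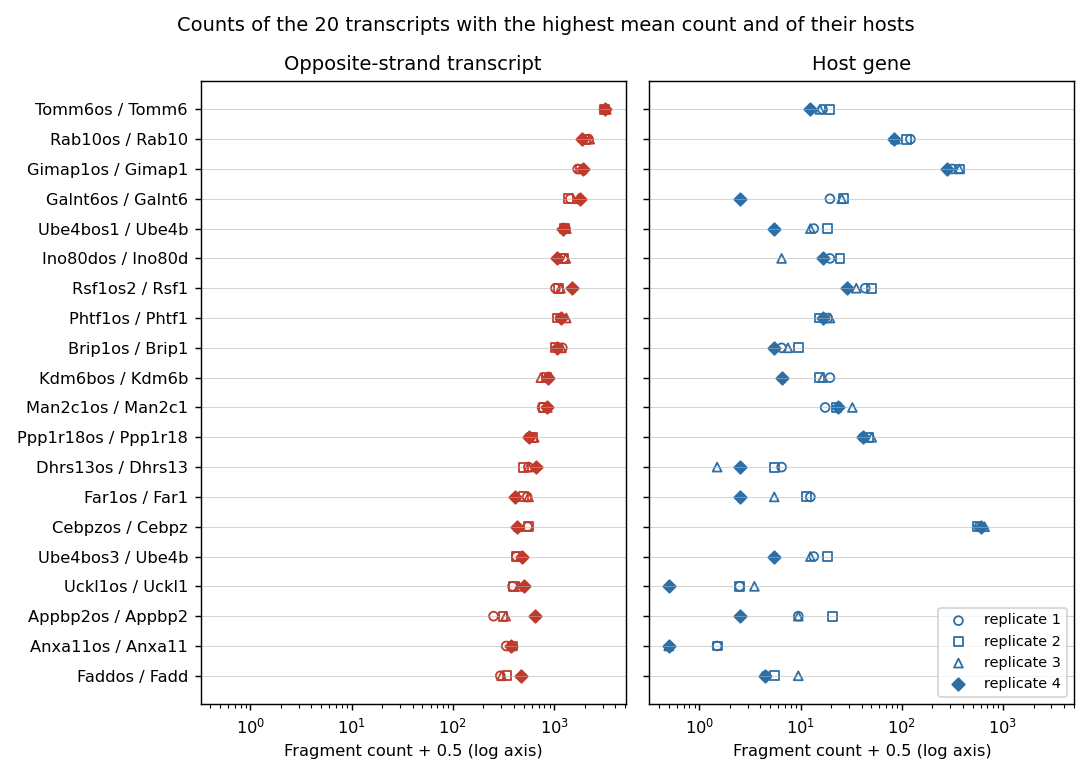
Fragment counts plus 0.5, on log axes, of the 20 transcripts with the highest mean count (left) and of their hosts (right), 1 symbol per library with replicate 4 filled. The transcripts lie between 251 and 3266 fragments with the libraries close together, and most hosts lie under 30, with replicate 4 the lowest library for many.

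The next 22 transcripts, with mean counts of 100.2 to 345.8, were also all higher than their hosts, by 3.90 to 531 times per exon base. Their hosts include Rptor, the Raptor subunit of mTORC1, and Itpr3, an inositol trisphosphate receptor. Rptoros had 114, 119, 132 and 99 fragments, against 6, 6, 10 and 1 for Rptor, and Itpr3os had 134, 140, 136 and 179, against 5, 14, 7 and 11 for Itpr3. Sp3os was highest in replicate 4, with 71, 68, 70 and 192 fragments, against 51, 68, 47 and 78 for the transcription factor Sp3. Of the 35 transcripts with a mean of 10 to under 100, 28 were higher than the host, 5 lower and 2 did not pass. Below a mean of 10, 73 pairs were fitted. In 48 of these the transcript had a count and was higher than the host in 13 and lower in 11, and in the other 25 it was at 0 and was called lower in 12. These classes were cut by the transcript's own count, which is one side of the ratio, so that the calls in the highest classes were largely set by the cut and are a description. Pairs with few fragments on both strands could not enter the test, so the counts describe the pairs fitted and not all members.

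In all 16 hosts had a mean count of at least 100, and the 15 highest were named. All 16 share exon bases with some opposite gene, and 13 of them with a gene other than the named transcript. Of the 15, the host was higher than the transcript in 11 pairs and the transcript higher in 4. The 15 were chosen by the host's own count, a side of the ratio, so that calls for the host were favoured by the choice.

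Mettl5os had 1, 0, 0 and 2 fragments, against 1406, 1311, 1124 and 1188 for Mettl5, a methyltransferase of ribosomal RNA, which shares 169 bases with Ssb, the gene of the La protein.

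Fgf2, a fibroblast growth factor, is known in human and rat for its antisense partner Nudt6, with which it shares 640 exon bases here. The named transcript Fgf2os, which shares none of its bases, had 2, 1, 1 and 2 fragments, against 403, 369, 445 and 380 for Fgf2. Ccpg1os had 0, 1, 1 and 0, against 400, 336, 384 and 385 for Ccpg1, a receptor for autophagy of the endoplasmic reticulum, which shares 2170 bases with Pigb of glycolipid anchor synthesis. Spag17os, which shares 516 bases with Spag17, was at 0 in all 4 libraries. Spag17, a gene of the ciliary axoneme, had 1200, 1177, 1235 and 1270 fragments and shares 820 bases with Wdr3, and it was at least 846-fold higher per exon base, with the transcript set at 3 fragments over the 4 libraries. In the same way Far2os1 and Far2os2 were both at 0. Far2, a fatty acyl-CoA reductase with 1865, 1710, 1965 and 1746 fragments and 837 bases shared with Ergic2, was at least 184-fold higher than Far2os1 and at least 325-fold higher than Far2os2.

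Wdr83, a WD-repeat scaffold, was higher than its named transcript. Wdr83os, a coding gene for a chaperone subunit of membrane protein insertion, had 44, 35, 26 and 28 fragments, against 1847, 1853, 1903 and 1642 for Wdr83. The host was 19.9 times as high per exon base (log2 of transcript over host -4.33 in the edgeR fit, adjusted p = 3.04e-07). Wdr83 shares 539 bases with Wdr83os and 128 with Dhps. Zfp335os had 69, 67, 90 and 145 fragments, against 502, 493, 536 and 512 for Zfp335, a zinc finger protein needed for T cell maturation. Zfp335 shares 1107 bases with Pcif1, the cap methyltransferase, which had 6493 fragments in all. The log2 of transcript over host was -0.63 ± 0.49 (SD, n = 4, edgeR adjusted p = 0.0361), and it missed the threshold without replicate 1, 2 or 3, with adjusted p of 0.12 to 0.162.

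In 4 of the 15 pairs both strands had sizeable counts and the transcript was higher per exon base. One was Gimap1os, above. Cebpzos, a protein-coding gene, had 545, 553, 443 and 430 fragments, against 580, 559, 656 and 609 for Cebpz. The transcript was 2.95 times as high per exon base, while the raw counts were the other way (log2 -0.29, edgeR adjusted p = 0.17). Arf4os had 197, 240, 278 and 375 fragments, against 304, 346, 343 and 395 for Arf4, a GTPase of the Golgi, with a ratio of 3.90 per exon base. Acss2os had 78, 89, 70 and 69, against 181, 216, 179 and 191 for Acss2, an acetyl-CoA synthetase, with a ratio of 6.45. In these 3 pairs the direction depends on whether counts are divided by exon bases.

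Hosts that share a base with any opposite gene had a mean count of at least 10 in 44 of 158 (27.8%), against 11 of the 90 hosts that share none (12.2%), of which none reached 100. Among all genes in the tables that share was 44.2% of 8189 genes with shared bases and 5.81% of 42411 genes without. Smc2os was at 0, and Smc2, a condensin subunit and the highest of those 11 hosts, had 54, 75, 82 and 12 fragments. Smc2 was at least 8.49-fold higher per exon base, and Ccdc34, Slmap and the centriolar gene Cep83 were likewise called over transcripts at 0, by at least 6.48-, 6.54- and 24.7-fold.

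The transcripts divided along the same line. Of the 162 that share bases with an opposite gene, 74 (45.7%) had a mean count of at least 10, against 3 of the 128 (2.34%) that share none. Over all genes in the tables these shares were 44.2% and 5.81%, so the split is not particular to the named transcripts. Within the pair, a mean of 10 was reached by 5 of 134 transcripts (3.73%) with no base shared with the host, 13 of 32 with 1 to 99, 32 of 65 with 100 or more but under 300, and 27 of 59 with 300 or more. Beyond having any shared base, the amount did not order the levels: over the 108 transcripts with a count and shared bases, Spearman's rho was 0.040 between shared bases and mean count, and 0.185 between exon bases and mean count, which are descriptions over genes of the same libraries. The 3 transcripts with a mean of at least 10 and no opposite partner were Slc7a6os, Phf2os1 and Sap30bpos.

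**Figure D4:**
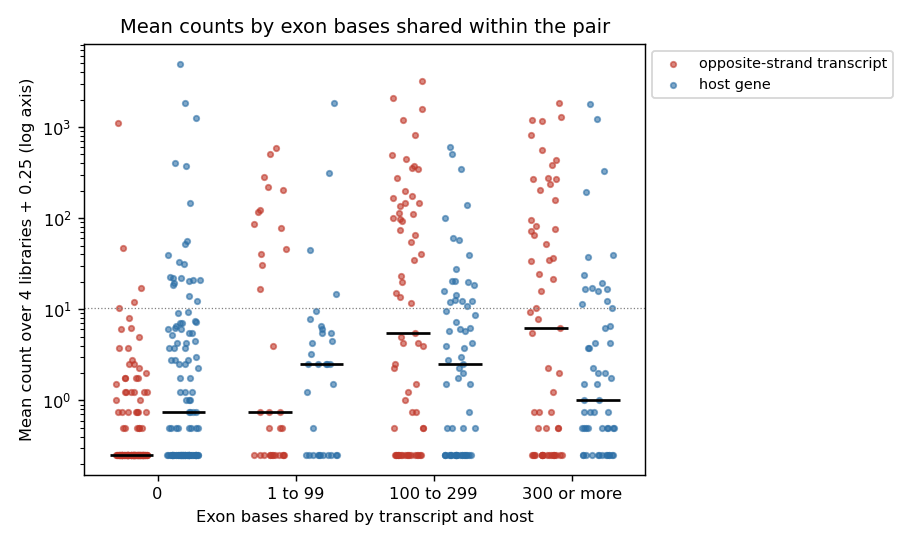
Mean count over 4 libraries plus 0.25, on a log axis, of transcripts (red) and hosts (blue), by the exon bases shared within the pair; black bars are medians and the dotted line is a mean count of 10. In the class with 0 shared bases 5 of 134 transcripts are above the line, against 13 of 32, 32 of 65 and 27 of 59 in the classes with shared bases.

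Slc7a6os, a protein-coding gene that ends near the end of the amino acid transporter gene Slc7a6, had 50, 45, 49 and 42 fragments. Slc7a6 had 5, 17, 2 and 3, and the transcript was 7.46 times as high per exon base (log2 3.24 ± 1.25, SD, n = 4, edgeR adjusted p = 0.000691), or 15.3 times without replicate 2. Phf2os1 had 3, 8, 9 and 20 fragments over 498 exon bases, against 18, 31, 27 and 12 for the histone demethylase gene Phf2, so that the groups overlapped in raw counts and replicate 4 stood opposite to the others. Its ratio of 4.80 per exon base (edgeR adjusted p = 0.00938) was 2.78 without replicate 4, and turned to a log2 of -1.23 in raw counts. Sap30bpos had 16, 12, 18 and 22, against 145, 122, 158 and 158 for Sap30bp, which was 5.44 times as high per exon base. Fbxl12os shares 1251 bases with Gm26521 and had 14, 11, 12 and 10, against 22, 14, 26 and 27 for Fbxl12, an F-box protein gene. The edgeR adjusted p of that pair was 0.0448, and it passed 0.05 with none of the libraries left out singly, at 0.0545 to 0.141.

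The arrangement of the pair also went with the levels. A mean of 10 was reached by 16 of 26 transcripts whose end overlaps the host's end, 34 of 123 that lie inside the host, 21 of 78 whose start overlaps the host's start, 2 of 8 that contain the host, 2 of 43 that lie apart from the host head to head, and 2 of 12 that lie apart tail to tail. Shared bases moved with the arrangement, since 23 of the 26 pairs with overlapping ends share some and none of the pairs that lie apart do. In 121 pairs the starts face or overlap each other, at a median distance of 696 bases, and in 69 of them the starts lie within 1000 bases.

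One such start region is Appbp2, an adaptor subunit of a ubiquitin ligase, whose promoter lies mostly in exons of Appbp2os. The window runs from 250 bases before to 50 after the annotated start (RefSeq, GRCm38.p6, chr11:85235071-85235370, minus strand). A like window of Phtf1, not shown, lay in exons of Phtf1os with all of its 300 bases. In the Appbp2 window 262 of the 300 bases, in capitals, are in exons of Appbp2os, which reads the reverse complement.
Appbp2: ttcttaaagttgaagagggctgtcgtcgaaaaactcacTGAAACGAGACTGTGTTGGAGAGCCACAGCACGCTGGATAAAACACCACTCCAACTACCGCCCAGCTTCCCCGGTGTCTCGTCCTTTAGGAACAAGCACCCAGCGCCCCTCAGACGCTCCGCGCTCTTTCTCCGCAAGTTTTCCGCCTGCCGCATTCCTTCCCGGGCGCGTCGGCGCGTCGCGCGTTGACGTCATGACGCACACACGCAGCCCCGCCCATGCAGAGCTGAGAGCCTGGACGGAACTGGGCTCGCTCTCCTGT

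Appbp2os had 251, 311, 331 and 641 fragments, against 9, 20, 9 and 2 for Appbp2, with replicate 4 the highest for the transcript and the lowest for the host. Its ratio was 240 per exon base (log2 8.09 ± 1.78, SD, n = 4, edgeR adjusted p = 2.30e-06), and 147 without replicate 4 and 383 without replicate 2. The window has a GC content of 60.3%. Searched on both strands, it holds GGGCGG, the core of a GC box, and neither TATAAA nor CCAAT. Of the 199 hosts found among the RefSeq promoters, 52.8% hold GGGCGG, against 35.9% of all 27025 promoters there, while TATAAA was in 7.04% of the hosts' windows, against 14.2% of all, and CCAAT in 38.7%, against 37.9%. The 174 transcripts found there held GGGCGG in 29.9% of their windows. The sets are unlike, since all hosts are protein-coding and the 27025 promoters include those of noncoding genes, most of the 174 among them. The differences were not tested. These are matches of letters, not binding sites.

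Levels were also set against 1 TPM with limma's moderated test on log2(TPM + 0.1), adjusted over 17203 genes with a count. Of 150 transcripts tested 82 (54.7%) were above 1 TPM and 27 (18%) below, and of 157 hosts 35 (22.3%) were above and 48 (30.6%) below, against 32.1% above and 26.6% below among all genes tested. Of the 82 transcripts above, 77 share bases with an opposite gene. The counts below 1 TPM moved with the libraries used: without replicate 3 they were 11 transcripts and 28 hosts, and without replicate 4, 17 transcripts and 37 hosts. The 42 transcripts with a mean count of at least 100 had a median coefficient of variation of 15.6% in TPM between libraries, with a range of 4.67 to 55.8%, against 13.2% in the 16 hosts of that size.

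The coding or noncoding type of the transcript went with the direction. Of the 10 protein-coding transcripts, 8 were in fitted pairs, with the transcript higher in 3 (Cebpzos, Fancd2os and Slc7a6os) and the host higher in 5. Of the other 142 fitted pairs the transcript was higher in 80 and the host in 23. Fancd2os, opposite the Fanconi anaemia gene Fancd2 and sharing 257 bases with it, had 131, 122, 131 and 157 fragments, against 11, 16, 12 and 3. Brd3os had 1, 1, 1 and 0, against 65, 53, 59 and 32 for the bromodomain gene Brd3, with no base in common.

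A list set by host symbol held 28 transcripts named for developmental transcription factors of the Hox, Sox, Dlx, Pax, Fox and related families, and these had 4 fragments among them in all libraries. The list does not hold every homeobox host: outside it Hopxos had 185, 195, 164 and 274 fragments, against 0, 0, 7 and 0 for Hopx. Zfhx2os had 47, 70, 104 and 109, against 2, 10, 2 and 2 for Zfhx2, and Prox2os had 40, 30, 32 and 42, against 36, 22, 47 and 44 for Prox2. The values of the class thus rest on the symbols listed, and these 3 were named after their values were seen. Of the 4 fragments on the list Foxd2os had 2, and Hoxa11os and Hoxb3os 1 each, the last 2 only in replicate 4. None of the 22 listed hosts had a mean count above 1.5. Such factors are known for patterning the embryo. Of the 28, 12 share exon bases with their host, among them Hoxb3os with 2250 and Sox5os1 with 1330 bases.

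Of the 8 transcripts named for hosts on the list of immune and T cell genes, set by symbol, 6 were at 0. Gimap1os, Faddos and Zfp335os, whose hosts also act in lymphocytes, are not on that list and had the higher counts given above. Dnmt3aos had 6, 1, 4 and 5 fragments, against 55, 64, 78 and 30 for Dnmt3a, the de novo DNA methyltransferase, and the pair did not pass the test (edgeR adjusted p = 0.732). Runx2os1 had 1, 2, 2 and 3, against 3, 6, 1 and 4 for the transcription factor Runx2, and was 6.38 times as high per exon base (edgeR adjusted p = 0.0122). Il1bos, Ptgs2os, Ptgs2os2, Runx2os2, Runx2os3 and Tnfsf13os were at 0, and their hosts had 6 fragments or fewer in each library.

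Replicate 4 differed from the other libraries over all genes, most in genes that share no bases with the other strand. Among members the hosts differed more than the transcripts, and 74 of the 77 transcripts compared share such bases. CPM without CT010467.1 in each library was set against the mean of the other 3, for members averaging 10 fragments or more. In replicate 4 none of 77 transcripts was more than 1 log2 unit lower and 4 were higher (Sp3os, Appbp2os, Arhgap27os2 and Phf2os1), with a median of 0.08. Of all 6081 genes of that size 190 were more than 1 higher. Of 55 hosts 13 (23.6%) were more than 1 lower, against 26.7% of all 6081 genes of that size. Among the 44 hosts that share bases with an opposite gene 7 were lower, with a median of -0.09, and among the 11 that share none 6 were, with a median of -1.03. Smc2 was at -2.46, Cep83 at -3.23 and Ccdc34 at -1.63, while Epb41l4a was at 1.22. Over all genes of that size the median was -0.01 for those with shared bases and -1.04 for those without. More than 1 lower were 363 of the 3616 with shared bases and 1260 of the 2465 without. The split is thus not particular to the hosts. Of the 7 T cell markers, Cd4, Trac, Cd3e and Cd3g were lower in this library than in each of the others, at 20, 2, 4 and 5 fragments, against 56 to 71, 19 to 30, 14 to 17 and 14 to 16. Gata3, at 22 fragments, lay within the range of the others, Il4 was at 26, against 21 to 25, and Il13 was at 0. The part of these differences in the result was not tested.

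**Figure D5:**
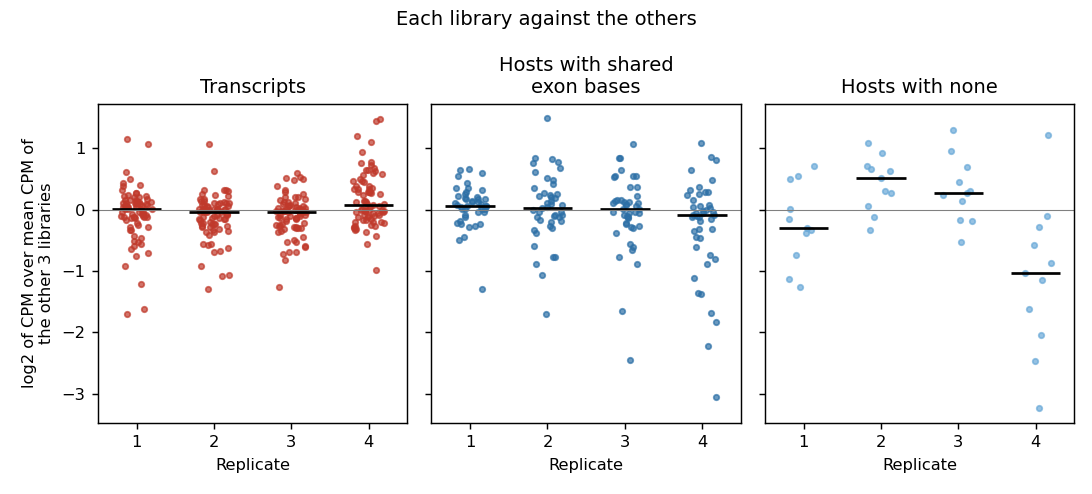
The log2 of CPM in each library over the mean CPM of the other 3, for transcripts (left, 77), hosts that share exon bases with an opposite gene (middle, 44) and hosts that share none (right, 11); black bars are medians. In replicate 4 the median of the hosts without shared bases is -1.03, against -0.09 for hosts with them and 0.08 for the transcripts.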

How the data were processed

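RNA from 4 libraries of mouse Th2 cells had been counted before deposit. With featureCounts 1.4.6-p4, per the file headers, the authors assigned fragments to exons of GENCODE M13, summed by gene, with both ends aligned and strand setting 1, and per the labels the assembly is mm10. The aligner's version is not given in the sources used here. The assay label is total RNA-seq, but the protocol linked for library construction has poly(A) in its name. The authors deposited unscaled counts for each gene beside each gene's exon coordinates and exon length.

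Symbols were matched by gene ID for 50376 of 50600 genes, and 224 had none. Exons were merged per gene and shared bases summed between strands. TPM was computed from counts and exon length. Pairs were tested with edgeR 4.0.16 on the counts, with library as a block and an offset of total count and exon length, for pairs with at least 10 fragments, over 3331 pairs, in which 928 genes enter more than 1 pair. The pairs sharing any exon base on opposite strands and the members entered 1 fit. Levels were tested with limma 3.58.1, with a pseudocount of 0.1 TPM, two-sided. P-values were adjusted by Benjamini-Hochberg with 0.05 as the threshold, and both tests were tested on simulated counts. Ratios are of summed counts per exon base, and log2 ratios per library add 0.5 to each count. Software included R 4.3.3, scipy 1.17.1 on Python 3.11.15 and, for alternatives, DESeq2 1.42.0.

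The 41 pairs named by rule were the 20 with the highest mean transcript count, the 15 with the highest mean host count, 10 with the largest host over transcript ratio among those called, and the 5 without shared bases whose transcript has a mean count of at least 10, some under more than 1 heading. Not every named pair or marker is reported here. Further pairs were named after their values were seen, and the role lists were set by host symbol. The members and lists were chosen with earlier results of these data known. Intervals and floors cover counting error only. Alternatives tried were other scaling, filters, tools and levels, the fit without the block, and leaving out each library.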

Additional observations from a re-analysis of the deposited data

Results flagged for a closer look

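Of 42 values tested for a single library far from the other 3, 3 stood apart, and chance flags about 1 in 20 such values. Galnt6os over Galnt6 had a log2 of 10.98 per exon base in replicate 4, where Galnt6 had 2 fragments, against 19 to 26 in the others. Uckl1os over Uckl1 had 10.84 in replicate 4, where Uckl1 had 0, against 2 or 3. Zfp652os over Zfp652 had -1.91 in replicate 4, where Zfp652os had 2 fragments and none in the other libraries. All 3 were replicate 4, the library that also stood apart over all genes, and each rests on a strand with few fragments.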

How the results depend on the processing

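The count of pairs with the transcript higher was 83 to 85 under the other scaling of library sizes, the looser filter and the other tools, 73 with at least 40 fragments in the pair and 68 in raw counts without exon length. It was 77 to 78 with a library left out, against 19 to 28 pairs with the host higher. Without the replicate block that pairs the 2 strands of a library the counts were 84 and 30, and no call turned round. Raw counts without exon length gave 58 pairs with the host higher, and reversed Cebpzos (-0.29), Arf4os (-0.38), Acss2os (-1.33) and Phf2os1 (-1.23), by construction. Over 492 values of the 41 named pairs, 478 kept direction and call, 10 (Zfp335os and Fbxl12os) missed the threshold and 4 were these reversals. DESeq2 called 83 and 24. Transcripts below 1 TPM were 27, but 15 at a level of 0.5 TPM, 46 at 2 TPM, 0 with a mean count of at least 10, and 11 to 19 with a library left out. Hosts below were 48, but 84 at 2 TPM, 0 with a mean count of at least 10, 30 against 1 CPM, and 28 to 37 with a library left out. Hosts above were 35, but 70 against 1 CPM. TPM scaled without CT010467.1, an alternative chosen after seeing the data, gave 82 transcripts above and 26 below, and 38 hosts above and 46 below. The transcripts' share of pair counts was 62.5%, but 81.9% per exon base, 70.9% without the pair of highest summed count and 75.3% over pairs sharing at least 50 bases. Other causes were not tested. Depth limits pairs under 10 fragments, which were not fitted.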

Other observations

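Other antisense transcripts carry the suffix as or ot instead of os, and 4 of them met the same rule of position. Dlx1as, opposite the homeobox gene Dlx1, had 51, 38, 56 and 65 fragments, against 0 in every library for Dlx1, and was at least 232-fold higher per exon base with the host set at 3 fragments over the 4 libraries. Kcnq1ot1, the long imprinted transcript inside the potassium channel gene Kcnq1, had 1, 2, 1 and 6 fragments, against 3, 2, 0 and 3 for Kcnq1. Znrd1as had 0, 0, 0 and 3, against 0, 3, 2 and 0 for Znrd1. Ifngas1, near the gene of interferon gamma, was at 0 in all libraries, against 0, 1, 0 and 1 for Ifng.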
